A study of Homo sapiens with 9 samples.

Results

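Receptor tyrosine kinases are membrane proteins that bind a growth factor or a ligand on a neighbouring cell and signal through a tyrosine kinase inside the cell. The genes described here are the 52 receptor tyrosine kinase genes of a list fixed by name, which covers the EGF, insulin, PDGF, VEGF, FGF, MET, TAM, neurotrophin, ROR, RET, ROS1, ALK, TIE, discoidin, RYK, PTK7, MUSK and EPH families, and all 52 were among the 26475 gene symbols of the count table. The list goes by gene family and not by level or change. Their mRNA was followed in A375, an established BRAF-mutant line of human melanoma cells, treated for 24 h with TP-472, which binds the bromodomains of BRD9 and BRD7 and blocks them. The groups were DMSO alone, 5 µM TP-472 and 10 µM TP-472, with 3 sequenced libraries each, all from the same unmodified line in culture. The libraries are numbered as replicates 1 to 3 in each group, the submitters call them biological replicates, and the p-values measure the spread between these libraries. A single cell line and a single time were profiled, and in such a bulk measurement fewer cells that hold an mRNA and less of it per cell cannot be told apart.

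Binding of the ligand brings receptor chains together, the kinase domains phosphorylate each other, and adaptor proteins dock on the new phosphotyrosines to start the RAS to ERK and PI3K to AKT cascades. Sprouty proteins, phosphatases and ubiquitin ligases then switch the signal off. In melanoma cells with mutated BRAF the ERK cascade is driven below the receptors, and receptors such as EGFR, PDGFRB, IGF1R, MET and AXL are known from work on resistance to BRAF inhibitors. KIT is the receptor that melanocytes need to develop, and the EPH receptors, the largest family, bind ephrins on neighbouring cells.

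Expected counts per gene, as deposited, summed to between 42483091 and 51298130 per library. Levels are given as counts per 1000000 (CPM) on library sizes scaled by TMM, and levels of different genes are compared only per kilobase (kb) of exon. A gene was called when its fold change was at least 1.5 and its Benjamini-Hochberg adjusted p in edgeR's quasi-likelihood test was under 0.05 over the 16417 genes tested, and all adjusted p-values below come from this test unless another setting is named. Of the melanocyte lineage markers, 6 of 10 reached a mean of 1 CPM in DMSO, among them SOX10 and MITF, whereas the pigment genes TYR and DCT stayed under 0.1 CPM in every library. The summed level of these 10 markers ranged from 1377 to 1387 CPM in DMSO, from 1109.9 to 1151 CPM at 5 µM and from 848 to 926 CPM at 10 µM. CSPG4, a surface proteoglycan of melanoma cells, fell from 699.5, 707 and 707 CPM in DMSO to 173, 266 and 247 CPM at 10 µM and was the only marker of this list called, while SOX10, MITF, MCAM, S100B and PMEL each had 10 µM libraries that overlapped DMSO. Lists of other cell types reached 1 CPM for 3 of 6 epithelial, 1 of 5 fibroblast and 1 of 4 immune markers, the last being CD68, whose list summed to 53.4 to 58.9 CPM in DMSO and 87.4 to 131 CPM at 10 µM. Library 10 µM replicate 1 stood apart. A spline fit on the length and GC content of the transcripts took up 29.1% of the variance in its deviations from the group mean, 17.4% and 19.1% for the other 10 µM libraries, and 0.37% to 2.22% for those in DMSO or at 5 µM. It was the lowest of the 10 µM libraries for 28 of the 43 receptor genes tested (65.1%), against 42.2% of all genes tested. Ribosomal RNA genes held from 8.20% to 19.9% of a library's counts. With these genes left out, the receptor genes called against DMSO were the same at both doses, and ERBB3 was no longer called lower at 10 µM than at 5 µM. Removal of the trend with length and GC content kept the count of 16 falls at 10 µM, but INSR and PTK7 were lost and DDR2 and EGFR were gained.

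In DMSO, 7 of the 52 receptor genes had a mean of at least 100 CPM, 17 lay between 10 and 100 CPM, 8 between 1 and 10 CPM, and 20 were under 1 CPM. Per kb of exon, the highest level was that of EPHA2, an ephrin-A receptor, with 164 ± 1.95 CPM per kb (SD, n = 3). AXL, a receptor for GAS6, followed with 101 ± 1.41 CPM per kb, and MET, the receptor for hepatocyte growth factor, with 40.7 ± 1.16 CPM per kb. The next were ERBB3 (23.8 ± 0.331 CPM per kb), DDR1 (16.3 ± 0.524 CPM per kb) and EPHB4 (13.8 ± 0.345 CPM per kb). The DMSO libraries of each of these 6 genes lay above all those of the next gene in the order. RYK and IGF1R came after them and overlapped each other, with 11.3 to 12.1 and 11.2 to 11.7 CPM per kb. EPHA3, EPHA7 and FGFR1 could not be ordered either, as each overlapped its neighbour at 5.84 to 6.63 CPM per kb. The exon length is that of all annotated exons of a gene, merged, and not that of the transcripts present. The order of the genes and the share of EPHA2 given below therefore also depend on the annotation.

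**Figure D1:**
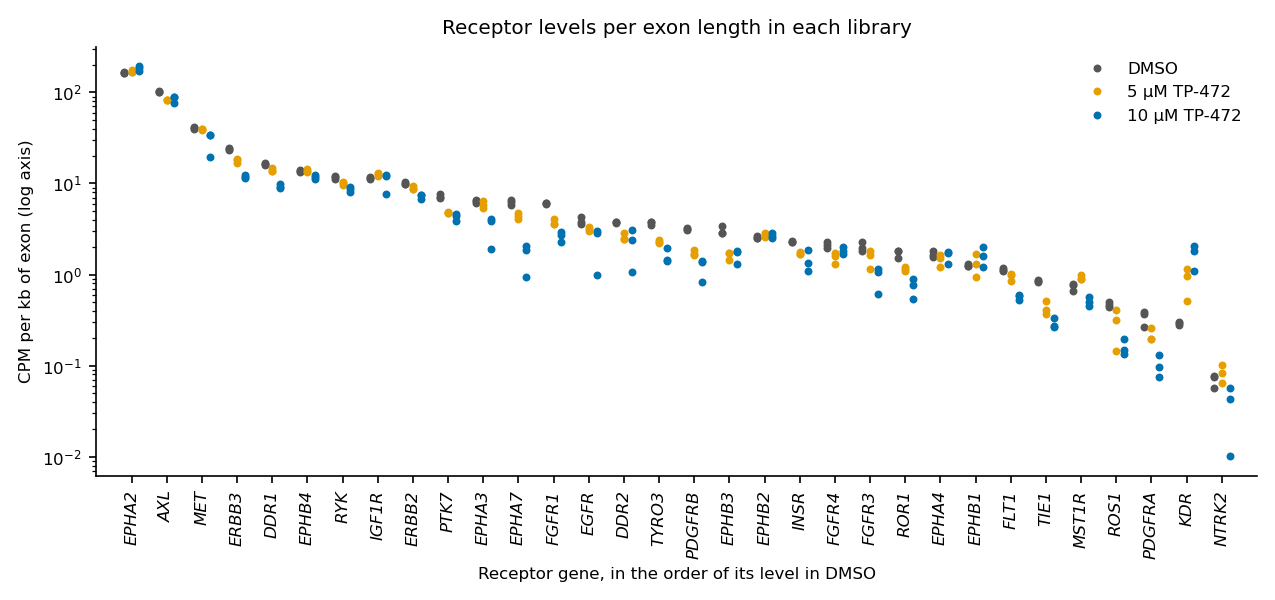
Level of each receptor gene with a mean of at least 1 CPM in DMSO, in CPM per kb of exon on a log axis, for the 9 libraries. Points are single libraries, coloured by group, and genes are in the order of their DMSO level, so that EPHA2 and AXL stand highest and KDR near the low end, where its TP-472 libraries lie above DMSO.

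EPHA2 took a larger share of the receptor mRNA in the treated libraries. Its share of the summed level per kb of all 52 genes was 35.6% to 36.7% in the DMSO libraries, 40.6% to 41.8% at 5 µM and 45.0% to 49.3% at 10 µM, and the groups did not overlap. The summed level itself was 451 to 459 CPM per kb in DMSO and 411 to 421 CPM per kb at 5 µM. At 10 µM it was 352, 418 and 411 CPM per kb, with the lowest value in replicate 1. The level of EPHA2 was 688, 674 and 687 CPM in the DMSO libraries, 702, 732 and 693 CPM at 5 µM and 722, 799 and 769.5 CPM at 10 µM. Both doses lay above every DMSO library, but the log2 fold change of 0.16 ± 0.06 (SE), adjusted p = 0.0735 at 10 µM did not pass the test.

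At 10 µM TP-472, 16 of the 43 receptor genes tested were downregulated and 2 were upregulated. Of all 16417 genes tested, 10.5% were called down and 8.57% were called up in the same comparison, so that the receptors' share of falls (37.2%) was above that of all genes. Their share of rises (4.65%) rests on 2 genes, too few to be told apart from that of all genes. DESeq2 and edgeR's likelihood ratio test each called 4 rises. The genes that fell were ERBB3, INSR, PDGFRA, PDGFRB, FLT1, FGFR1, FGFR3, TYRO3, ROR1, ROS1, TIE1, DDR1, PTK7, EPHA3, EPHA7 and EPHB3. KDR and EPHB6 rose. At 5 µM, 5 receptor genes were downregulated, namely PDGFRB, FGFR1, TYRO3, TIE1 and EPHB3, against 2.72% of all genes called down, and KDR alone was upregulated, against 2.14% of all genes called up. The median log2 fold change of the 43 genes was -0.25 at 5 µM and -0.49 at 10 µM, while that of all genes tested was 0.0054 and 0.011. All 16 genes that fell at 10 µM also had a lower fitted level at 5 µM than in DMSO. As both comparisons share the DMSO libraries, this count does not set the receptors apart. Between the doses, 5 receptor genes were lower at 10 µM than at 5 µM (ERBB3, PDGFRA, FLT1, MST1R and EPHA7), against 2.59% of all genes. No receptor gene was called higher at 10 µM than at 5 µM, against 1.42% of all genes, although 3 (CSF1R, FGFR2 and KDR) had an unadjusted p under 0.05 in edgeR's quasi-likelihood test. There limma-voom called none as well, and DESeq2 and edgeR's likelihood ratio test each called KDR.

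**Figure D2:**
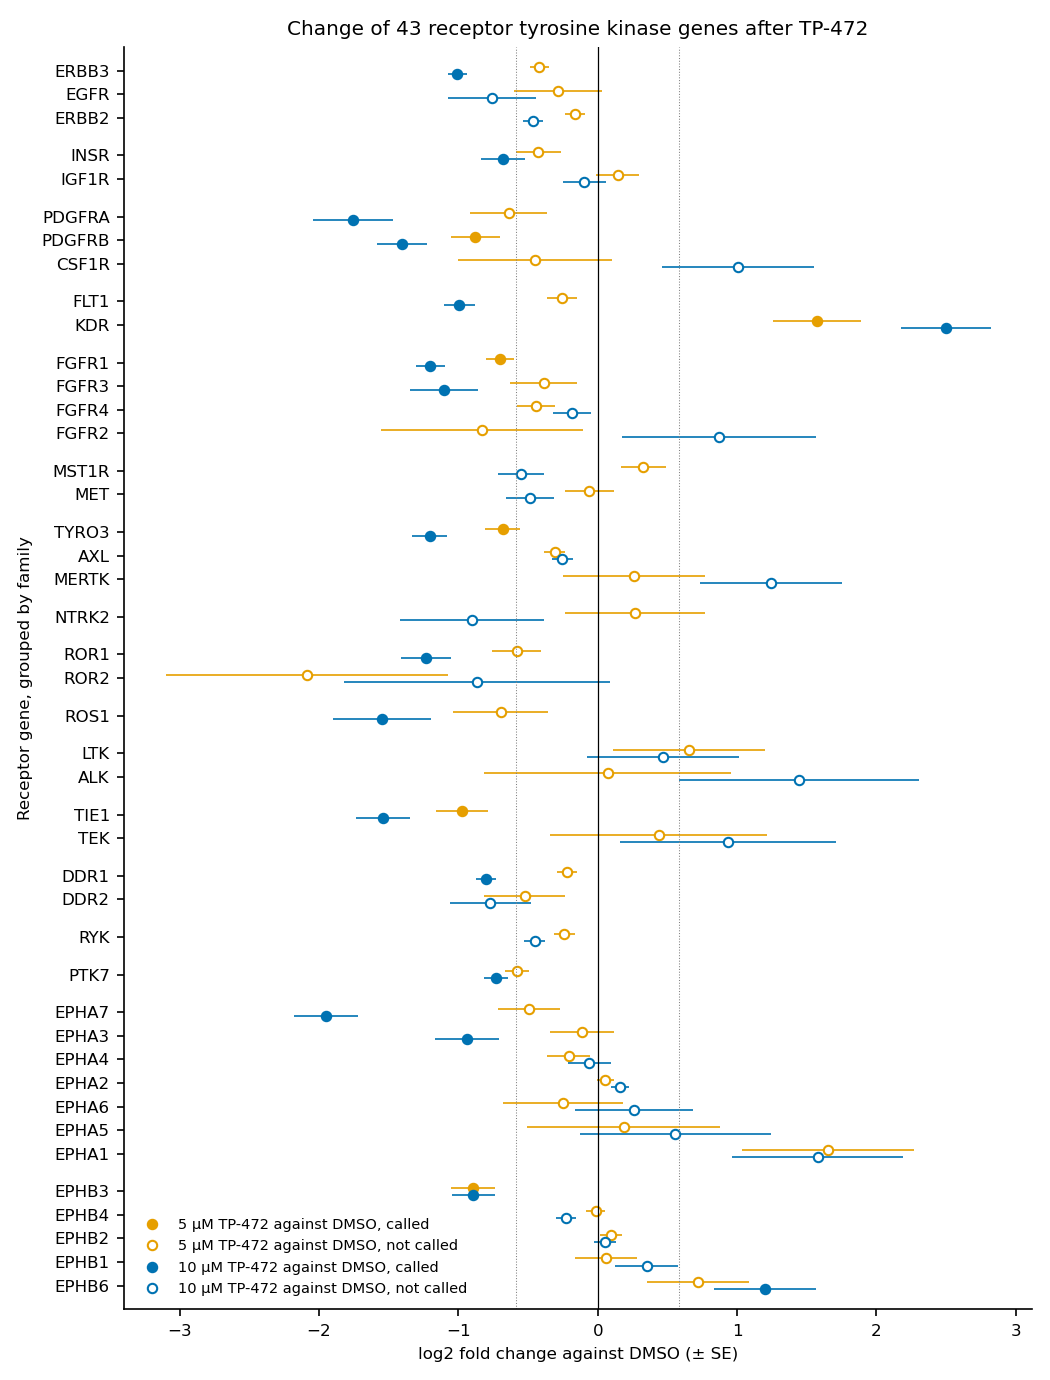
Log2 fold change against DMSO with its SE for the 43 receptor genes tested, at 5 µM (orange) and 10 µM TP-472 (blue), grouped by family. Filled points were called and dotted lines mark the 1.5-fold limits: the filled points lie on the left except those of KDR and EPHB6.

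Every fall called at 10 µM was that of a receptor gene with a mean of at least 1 CPM over the 9 libraries. Of the 32 receptors at this level, 16 were downregulated at 10 µM and 1, KDR, was upregulated, with a median log2 fold change of -0.76. Of all 13678 genes tested at this level, 11.99% were down and 8.74% were up, with a median of -0.0080. Of the 11 tested receptor genes under it, 1, EPHB6, was called up and 0 were called down. Of all 2739 genes tested under it, 7.74% were up and 3.29% were down, so that these counts do not set the receptors apart. The log2 fold change was above 0 for 10 of the 11, with a median of 0.93. Of all genes under this level, 59.2% were above 0, with a median of 0.26. Genes this scarce can pass the filter on counts only through the libraries in which they are high. The tally of directions among the 11 is therefore no evidence of a rise. Without 10 µM replicate 1, 15 receptor genes were down and 3 were up at 10 µM, and INSR no longer passed the fold limit. The third rise was that of KIT, which had 0 counts in all DMSO libraries and entered that fit only through the 10 µM libraries in which it was detected, so that its direction was fixed by the filter.

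The promoters of KDR, TIE1 and EPHA7 are shown because these genes had the largest rise, the largest fall at 5 µM among called receptor genes, and the largest fall at 10 µM. Each window is the 250 bases before the RefSeq transcription start on GRCh38.p14, read 5′ to 3′ on the strand of the gene, and capitals mark GC boxes (GGGCGG on either strand), a motif bound by Sp family factors. The KDR window is chr4:55125596-55125845 on the minus strand, that of TIE1 is chr1:43300732-43300981 on the plus strand and that of EPHA7 is chr6:93419560-93419809 on the minus strand. None of these windows overlapped an exon of GENCODE release 29.
KDR: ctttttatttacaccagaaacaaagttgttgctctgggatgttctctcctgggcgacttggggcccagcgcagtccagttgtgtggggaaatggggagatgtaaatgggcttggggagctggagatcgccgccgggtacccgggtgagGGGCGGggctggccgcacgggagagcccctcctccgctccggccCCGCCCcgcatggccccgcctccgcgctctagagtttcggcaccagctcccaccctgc
TIE1: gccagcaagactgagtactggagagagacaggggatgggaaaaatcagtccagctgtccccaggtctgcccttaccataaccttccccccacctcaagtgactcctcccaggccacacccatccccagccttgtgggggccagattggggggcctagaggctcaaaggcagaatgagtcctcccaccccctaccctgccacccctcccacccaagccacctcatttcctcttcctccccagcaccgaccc
EPHA7: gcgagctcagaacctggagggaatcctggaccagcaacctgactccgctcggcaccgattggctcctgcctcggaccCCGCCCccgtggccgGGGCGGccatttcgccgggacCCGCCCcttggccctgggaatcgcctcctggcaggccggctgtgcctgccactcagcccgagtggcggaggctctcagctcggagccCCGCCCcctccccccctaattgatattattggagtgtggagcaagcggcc
KDR held 2 GC boxes at 65.2% GC and EPHA7 held 4 at 69.6% GC. TIE1 held none at 61.6% GC and a single CpG, against 17 CpG in KDR and 19 in EPHA7. A promoter of this length was found for 48 of the 52 receptor genes, and 36 of them held a GC box, as did 42.4% of the 27195 promoters of the table. The median GC content was 69.4% for the receptor genes and 58.0% for all promoters. The TATA box (TATAAA) was present in 2 receptor promoters, those of DDR2 and FLT1, and in 11.1% of all. The AP-1 motif (TGANTCA) was present in 4, those of CSF1R, ERBB2, PDGFRA and TYRO3, and in 6.55% of all, and the cyclic AMP response element (TGACGTCA) in 2, those of EPHA2 and FLT1, and in 1.77% of all. The motifs were searched on both strands and their letters do not overlap one another. Among the receptor genes with a promoter, 8 of the 14 that fell at 10 µM and both that rose held a GC box.

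The VEGF receptors KDR and FLT1 changed in opposite directions. KDR, also called VEGFR2, is the main signalling receptor for VEGF-A, and FLT1, or VEGFR1, binds VEGF-A tightly with little kinase activity. KDR lies on chromosome 4 from 55078259 to 55125595 on the minus strand of GRCh38, as the genes below are placed by GENCODE release 29. Its level was 1.99, 1.85 and 1.91 CPM in the DMSO libraries, 3.33, 7.51 and 6.32 CPM at 5 µM and 7.19, 13.5 and 11.9 CPM at 10 µM. All TP-472 libraries lay above DMSO, and 5 µM replicate 1 and 10 µM replicate 1 were the lowest of their groups. KDR rose 2.98-fold at 5 µM (log2 fold change of 1.58 ± 0.32 (SE), adjusted p = 0.0119) and 5.66-fold at 10 µM (log2 fold change of 2.500 ± 0.32 (SE), adjusted p = 0.000287), the largest rise among the receptors. The call at 5 µM was lost with limma-voom (1.51, adjusted p = 0.0674) and when any DMSO library, 5 µM replicate 2 or 5 µM replicate 3 was left out, with adjusted p = 0.0511 to 0.0613. Without 10 µM replicate 1, KDR was also higher at 10 µM than at 5 µM (log2 fold change of 1.15, adjusted p = 0.00201).

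FLT1 had 14.0, 13.7 and 14.99 CPM in the DMSO libraries, 12.8, 12.4 and 10.6 CPM at 5 µM and 7.50, 6.65 and 7.32 CPM at 10 µM, with no overlap between the groups. The fall passed at 10 µM (log2 fold change of -0.99 ± 0.11 (SE), adjusted p = 0.000123) and between the doses (log2 fold change of -0.74 ± 0.11 (SE), adjusted p = 0.00369), the latter falling short of the fold limit once a trend with length and GC content was removed (-0.56, adjusted p = 0.0265). FLT4, the lymphatic VEGF receptor, had at most 6 counts in a library and was not tested. KDR, FLT1 and the TIE receptors mark endothelial cells in tissue. Of 4 other endothelial markers, PECAM1, CDH5, VWF and CLDN5, only PECAM1 reached a mean of 1 CPM in DMSO, and their summed level ranged from 2.29 to 3.87 CPM in DMSO, from 2.15 to 2.55 CPM at 5 µM and from 3.06 to 3.50 CPM at 10 µM, so that the 10 µM range lay inside that of DMSO. The sum holds opposite moves, as PECAM1 was below DMSO in every 5 µM library and CDH5 above DMSO in every 10 µM library, though neither was called.

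TIE1, a receptor without a ligand of its own that pairs with TEK, the angiopoietin receptor, went the other way from KDR. Its level was 5.61, 5.84 and 5.51 CPM in the DMSO libraries, 3.46, 2.44 and 2.75 CPM at 5 µM and 1.78, 1.83 and 2.22 CPM at 10 µM, and every step was without overlap. TIE1 fell at 5 µM (log2 fold change of -0.97 ± 0.19 (SE), adjusted p = 0.010004) and at 10 µM (log2 fold change of -1.54 ± 0.19 (SE), adjusted p = 0.000237). The call at 5 µM was lost without DMSO replicate 2 (-0.95, adjusted p = 0.0587). TEK stayed under 1 CPM in all libraries, and its log2 fold change of 0.93 ± 0.77 at 10 µM did not pass.

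The receptors for platelet-derived growth factor were both downregulated. PDGFRB, which binds PDGF-BB, had 22.2, 23.4 and 22.6 CPM in the DMSO libraries, 11.8, 12.0 and 13.3 CPM at 5 µM and 5.91, 9.92 and 9.94 CPM at 10 µM. No group overlapped another, and 10 µM replicate 1 was the lowest library. The fall was 1.84-fold at 5 µM (log2 fold change of -0.88 ± 0.17 (SE), adjusted p = 0.0113) and 2.65-fold at 10 µM (log2 fold change of -1.40 ± 0.18 (SE), adjusted p = 0.000256). At 5 µM the adjusted p was 0.0502 to 0.0595 when DMSO replicate 2 or 3, or 5 µM replicate 1 or 2, was left out.

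PDGFRA, which binds PDGF-AA and other PDGF dimers, was scarce in these cells. Its level was 2.60, 3.74 and 3.59 CPM in the DMSO libraries, 1.93, 1.90 and 2.55 CPM at 5 µM and 0.930, 1.27 and 0.734 CPM at 10 µM, and the groups did not overlap. PDGFRA fell at 10 µM (log2 fold change of -1.76 ± 0.28 (SE), adjusted p = 0.00118) and was lower at 10 µM than at 5 µM (log2 fold change of -1.12 ± 0.28 (SE), adjusted p = 0.0395). The second call was lost in 7 of 9 fits that left out a library, those without any DMSO library, any 5 µM library or 10 µM replicate 3, with adjusted p = 0.0631 to 0.143. It was also lost with limma-voom (-1.12, adjusted p = 0.0621), with a block for the replicate number (-1.13, adjusted p = 0.0669) and in a fit of the 5 and 10 µM libraries alone (-1.10, adjusted p = 0.174). Of the exon length of PDGFRA, 15.8% is shared with AC058822.1 on the same strand, so that its count is uncertain.

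PDGFRA, KIT and KDR are neighbours on chromosome 4, within 896 kb, and differed in direction. PDGFRA spans 54229097 to 54298247, KIT lies 360 kb further on at 54657918 to 54740715, and KDR begins another 338 kb on. Thus the gene at one end fell and that at the other end rose. KIT, the receptor for stem cell factor, had 0 counts in the 3 DMSO and the 3 5 µM libraries and in 10 µM replicate 1, where 3 counts would be 0.058 to 0.071 CPM. It had 28 and 15 counts (0.538 and 0.306 CPM) in 10 µM replicates 2 and 3. KIT was not tested over all 9 libraries. Of the other genes of this family, CSF1R, the receptor for macrophage colony-stimulating factor, had 0.604, 0.576 and 1.18 CPM in DMSO and 2.50, 1.48 and 0.754 CPM at 10 µM with overlap, and FLT3 had at most 12 counts.

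Of the EGF receptor family, ERBB3 was downregulated. ERBB3 binds neuregulins, has a weak kinase and signals through its partner ERBB2. Its level was 213, 219 and 215 CPM in the DMSO libraries, 163, 152 and 169 CPM at 5 µM and 104, 111 and 106 CPM at 10 µM, a stepwise decline without overlap. The fall was 2.01-fold at 10 µM (log2 fold change of -1.01 ± 0.07 (SE), adjusted p = 4.86e-06). At 5 µM it passed the p limit with a change under 1.5-fold (log2 fold change of -0.42 ± 0.07 (SE), adjusted p = 0.00387). The level at 10 µM was also called lower than at 5 µM (log2 fold change of -0.59 ± 0.07 (SE), adjusted p = 0.000869), a value just past the fold limit of 0.585 on the log2 scale that was under it in 10 of 20 alternatives, among them those without 5 µM replicate 3 (-0.56, adjusted p = 0.00797), 10 µM replicate 1 (-0.57, adjusted p = 4.01e-07) or 10 µM replicate 3 (-0.58, adjusted p = 0.00386).

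ERBB2, the partner receptor without a known ligand, had 101, 101 and 106 CPM in the DMSO libraries, 88.6, 95.6 and 90.8 CPM at 5 µM and 69.9, 77.0 and 76.9 CPM at 10 µM. It declined without overlap by less than 1.5-fold at 10 µM (log2 fold change of -0.46 ± 0.07 (SE), adjusted p = 0.000924), and 7.41% of its exon length is shared with MIEN1 and PGAP3 on the opposite strand. EGFR, the receptor for EGF and amphiregulin, had 45.3, 53.0 and 46.8 CPM in the DMSO libraries, 37.8, 39.9 and 41.6 CPM at 5 µM and 12.4, 36.2 and 37.3 CPM at 10 µM. All TP-472 libraries lay below DMSO, but at 10 µM replicate 1 was far below the other libraries and the log2 fold change of -0.76 ± 0.32 (SE), adjusted p = 0.0930 did not pass. EGFR was called down at 10 µM with DESeq2 and with the trend of length and GC content removed. ERBB4 had at most 12 counts in a library.

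The receptors for insulin and insulin-like growth factor differed. INSR, the insulin receptor, had 23.7, 24.2 and 23.9 CPM in the DMSO libraries, 18.5, 17.5 and 17.4 CPM at 5 µM and 11.5, 13.8 and 19.4 CPM at 10 µM, with every TP-472 library below DMSO and overlap between the doses. It was downregulated at 10 µM (log2 fold change of -0.68 ± 0.16 (SE), adjusted p = 0.00863), but without 10 µM replicate 1 the log2 fold change was -0.53, adjusted p = 0.000978, under the fold limit, and with the trend of length and GC content removed it was -0.51, adjusted p = 0.00453. IGF1R, the receptor for IGF1 and IGF2, had 156, 163 and 161 CPM in the DMSO libraries, 181, 179 and 170.1 CPM at 5 µM and 106, 169 and 175 CPM at 10 µM. The 5 µM libraries lay above DMSO, and at 10 µM replicate 1 was the lowest of all 9 libraries and the other pair was above every DMSO library. Its log2 fold change at 10 µM was -0.10 ± 0.16, and 0.10, adjusted p = 0.0621, without replicate 1, so that the direction rests on that library.

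Among the receptors for fibroblast growth factors, FGFR1 and FGFR3 were downregulated. FGFR1 is the abundant member in these cells, with 83.8, 82.5 and 85.0 CPM in the DMSO libraries, 49.1, 56.0 and 49.4 CPM at 5 µM and 31.3, 37.3 and 40.7 CPM at 10 µM. No group overlapped another, and the fall passed at 5 µM (log2 fold change of -0.70 ± 0.10 (SE), adjusted p = 0.00225) and 10 µM (log2 fold change of -1.202 ± 0.10 (SE), adjusted p = 2.15e-05). FGFR3 had 8.77, 9.36 and 11.2 CPM in the DMSO libraries, 7.95, 8.79 and 5.65 CPM at 5 µM and 3.00, 5.52 and 5.14 CPM at 10 µM. Its 5 µM libraries overlapped those in DMSO while the 10 µM libraries lay below both, and the fall passed at 10 µM (log2 fold change of -1.10 ± 0.24 (SE), adjusted p = 0.00651). FGFR4 had 10.9, 9.40 and 10.1 CPM in the DMSO libraries, 6.31, 8.29 and 7.80 CPM at 5 µM and 8.10, 9.77 and 8.86 CPM at 10 µM, with its mean lowest at 5 µM and called at neither dose (log2 fold change of -0.44 ± 0.14 at 5 µM and -0.19 ± 0.14 at 10 µM). FGFR2 had at most 1.08 CPM in a library.

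The TAM receptors AXL, TYRO3 and MERTK bind GAS6, which bridges them to membranes of dying cells, and TYRO3 and MERTK also bind protein S. TYRO3 had 41.4, 38.1 and 40.9 CPM in the DMSO libraries, 24.8, 26.2 and 24.1 CPM at 5 µM and 15.7, 21.3 and 15.2 CPM at 10 µM, without overlap, and was downregulated at both doses (log2 fold change of -0.68 ± 0.12 (SE), adjusted p = 0.00748 at 5 µM, and log2 fold change of -1.205 ± 0.13 (SE), adjusted p = 7.61e-05 at 10 µM). AXL, the most abundant of them, had 515, 524 and 529 CPM in the DMSO libraries, 426, 419 and 420.1 CPM at 5 µM and 391, 463 and 460.2 CPM at 10 µM. Its change was small and no larger at the higher dose (log2 fold change of -0.31 ± 0.08 (SE), adjusted p = 0.0296 at 5 µM, and log2 fold change of -0.25 ± 0.08 (SE), adjusted p = 0.0255 at 10 µM), and both values passed the p limit without reaching 1.5-fold. MERTK reached at most 1.35 CPM, above DMSO in every 10 µM library, with a log2 fold change of 1.24 ± 0.51 that did not pass in edgeR's quasi-likelihood test (adjusted p = 0.0861).

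MET and MST1R, the receptors for hepatocyte growth factor and macrophage-stimulating protein, were called at neither dose against DMSO with all libraries. MET had 278, 294 and 287 CPM in the DMSO libraries, 269, 277 and 280.1 CPM at 5 µM and 137, 237 and 239.7 CPM at 10 µM. The 5 µM libraries overlapped DMSO, the 10 µM libraries lay below both, and replicate 1 was far below the others. With all libraries MET missed the p limit at 10 µM (log2 fold change of -0.49 ± 0.17 (SE), adjusted p = 0.0541), and without 10 µM replicate 1 the spread was smaller and the value was -0.27, adjusted p = 2.19e-05, still under 1.5-fold. It was called down without 10 µM replicate 2 (-0.61, adjusted p = 0.0373) or replicate 3 (-0.62, adjusted p = 0.0314). MST1R had 3.48, 4.01 and 4.16 CPM in the DMSO libraries, 5.19, 4.69 and 4.74 CPM at 5 µM and 2.35, 2.65 and 2.95 CPM at 10 µM, so that the 5 µM libraries all lay above DMSO and the 10 µM libraries all below. It was called lower at 10 µM than at 5 µM (log2 fold change of -0.88 ± 0.17 (SE), adjusted p = 0.0116), a call lost without 5 µM replicate 1 (-0.83, adjusted p = 0.0507) and in a fit of those 6 libraries (-0.86, adjusted p = 0.0828). At 10 µM against DMSO MST1R passed the p limit with a change under 1.5-fold (log2 fold change of -0.55 ± 0.17 (SE), adjusted p = 0.0276) and was called down without DMSO replicate 1 (-0.62, adjusted p = 0.0464) or 10 µM replicate 3 (-0.63, adjusted p = 0.0248). Of its exon length, 6.78% is shared with genes on the opposite strand.

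Of the receptors tied to Wnt signalling, ROR1 and PTK7 were downregulated. ROR1, a WNT5A receptor of the embryo that reappears in tumours, had 12.3, 10.3 and 12.1 CPM in the DMSO libraries, 8.04, 7.34 and 7.74 CPM at 5 µM and 3.59, 5.94 and 5.20 CPM at 10 µM, with no overlap between groups. It fell 2.35-fold at 10 µM (log2 fold change of -1.23 ± 0.18 (SE), adjusted p = 0.000592). PTK7, a receptor of planar cell polarity without kinase activity, had 63.6, 61.8 and 68.4 CPM in the DMSO libraries, 43.3, 43.2 and 43.0 CPM at 5 µM and 40.01, 41.9 and 34.9 CPM at 10 µM. The 5 µM libraries lay within 1 CPM of each other, and both doses were below DMSO and close together. PTK7 was downregulated at 10 µM (log2 fold change of -0.73 ± 0.09 (SE), adjusted p = 0.000160), and at 5 µM its log2 fold change of -0.58 ± 0.09 (adjusted p = 0.00241) ended just short of the fold limit. With the trend of length and GC content removed the 10 µM value was under that limit too (-0.53, adjusted p = 0.000257). RYK, another Wnt receptor with an inactive kinase, had 91.2, 93.9 and 97.5 CPM in the DMSO libraries, 80.4, 82.6 and 76.5 CPM at 5 µM and 64.5, 69.3 and 72.8 CPM at 10 µM, below DMSO in every TP-472 library, and changed by -0.45 ± 0.07 on the log2 scale at 10 µM (adjusted p = 0.00127). ROR2 stayed under 1 CPM in every library.

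The collagen receptors DDR1 and DDR2 had similar fold changes with different spread. DDR1 had 144, 153 and 147 CPM in the DMSO libraries, 133, 124 and 125 CPM at 5 µM and 81.0, 89.9 and 84.1 CPM at 10 µM, without overlap, and was downregulated at 10 µM (log2 fold change of -0.80 ± 0.07 (SE), adjusted p = 2.75e-05). DDR2 had 39.0, 40.7 and 40.2 CPM in the DMSO libraries, 26.3, 26.3 and 30.7 CPM at 5 µM and 11.4, 25.5 and 33.4 CPM at 10 µM, with 10 µM replicate 1 far below the other libraries, and its log2 fold change of -0.77 ± 0.29 (SE), adjusted p = 0.0652 did not pass. DDR2 was called down at 10 µM with no filter, DESeq2, limma-voom, edgeR's likelihood ratio test, a block for the replicate number, the trend of length and GC content removed, or 10 µM replicate 3 left out. ROS1, a receptor best known for its gene fusions in lung cancer, had 3.92, 3.66 and 3.45 CPM in the DMSO libraries, 1.14, 2.46 and 3.20 CPM at 5 µM and 1.05, 1.56 and 1.16 CPM at 10 µM. All TP-472 libraries lay below DMSO, 5 µM replicate 1 was as low as the 10 µM libraries, and the fall passed at 10 µM (log2 fold change of -1.55 ± 0.35 (SE), adjusted p = 0.00730).

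The EPH receptors accounted for 14 of the 52 genes, of which 12 were tested, 3 were downregulated and 1 was upregulated at 10 µM, where 10.5% of all genes tested were down and 8.57% up. EPHA7, on chromosome 6 from 93240020 to 93419547, had 46.1, 49.4 and 43.6 CPM in the DMSO libraries, 33.1, 35.3 and 30.4 CPM at 5 µM and 7.04, 13.8 and 15.2 CPM at 10 µM. No group overlapped another, and the step from 5 to 10 µM was the larger one. EPHA7 fell 3.86-fold at 10 µM (log2 fold change of -1.95 ± 0.23 (SE), adjusted p = 0.000168), the largest fall among the receptors, and was lower at 10 µM than at 5 µM (log2 fold change of -1.46 ± 0.23 (SE), adjusted p = 0.00444). At 5 µM its log2 fold change of -0.49 ± 0.22 did not pass.

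EPHA3, another ephrin-A receptor, had 40.3, 42.6 and 43.6 CPM in the DMSO libraries, 38.8, 35.5 and 42.9 CPM at 5 µM and 12.7, 27.3 and 26.0 CPM at 10 µM. The 5 µM libraries overlapped DMSO, the 10 µM libraries lay below both with replicate 1 lowest, and EPHA3 was downregulated at 10 µM (log2 fold change of -0.94 ± 0.23 (SE), adjusted p = 0.0114). EPHB3, an ephrin-B receptor, had 13.0, 12.8 and 15.3 CPM in the DMSO libraries, 6.46, 7.79 and 7.82 CPM at 5 µM and 5.85, 8.04 and 8.23 CPM at 10 µM. Both doses lay below DMSO and overlapped each other, and the fall was the same size at 5 µM (log2 fold change of -0.89 ± 0.16 (SE), adjusted p = 0.00618) and 10 µM (log2 fold change of -0.89 ± 0.16 (SE), adjusted p = 0.00187). The log2 difference between the doses was 0.0028 ± 0.16 (SE).

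EPHB6, an EPH receptor without kinase activity, had 0.443, 0.514 and 0.496 CPM in the DMSO libraries, 0.920, 0.678 and 0.801 CPM at 5 µM and 1.07, 0.904 and 1.37 CPM at 10 µM. Every TP-472 library lay above DMSO, at levels near 1 CPM. It was called up at 10 µM (log2 fold change of 1.197 ± 0.37 (SE), adjusted p = 0.0294), and the call was lost without any DMSO library or without 10 µM replicate 3, with adjusted p = 0.0741 to 0.104, and with a block for the replicate number (1.18, adjusted p = 0.0631). The other abundant EPH receptors moved little at 10 µM. EPHB4 lay below DMSO in every 10 µM library and passed the p limit with a change under 1.5-fold (log2 fold change of -0.23 ± 0.07 (SE), adjusted p = 0.0293). EPHB2 had a log2 fold change of 0.05 ± 0.08 and EPHA4 of -0.06 ± 0.16, with overlap between all groups. EPHA1 was under 1 CPM in every library, with both doses above DMSO and a log2 fold change of 1.58 ± 0.62 that did not pass.

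**Figure D3:**
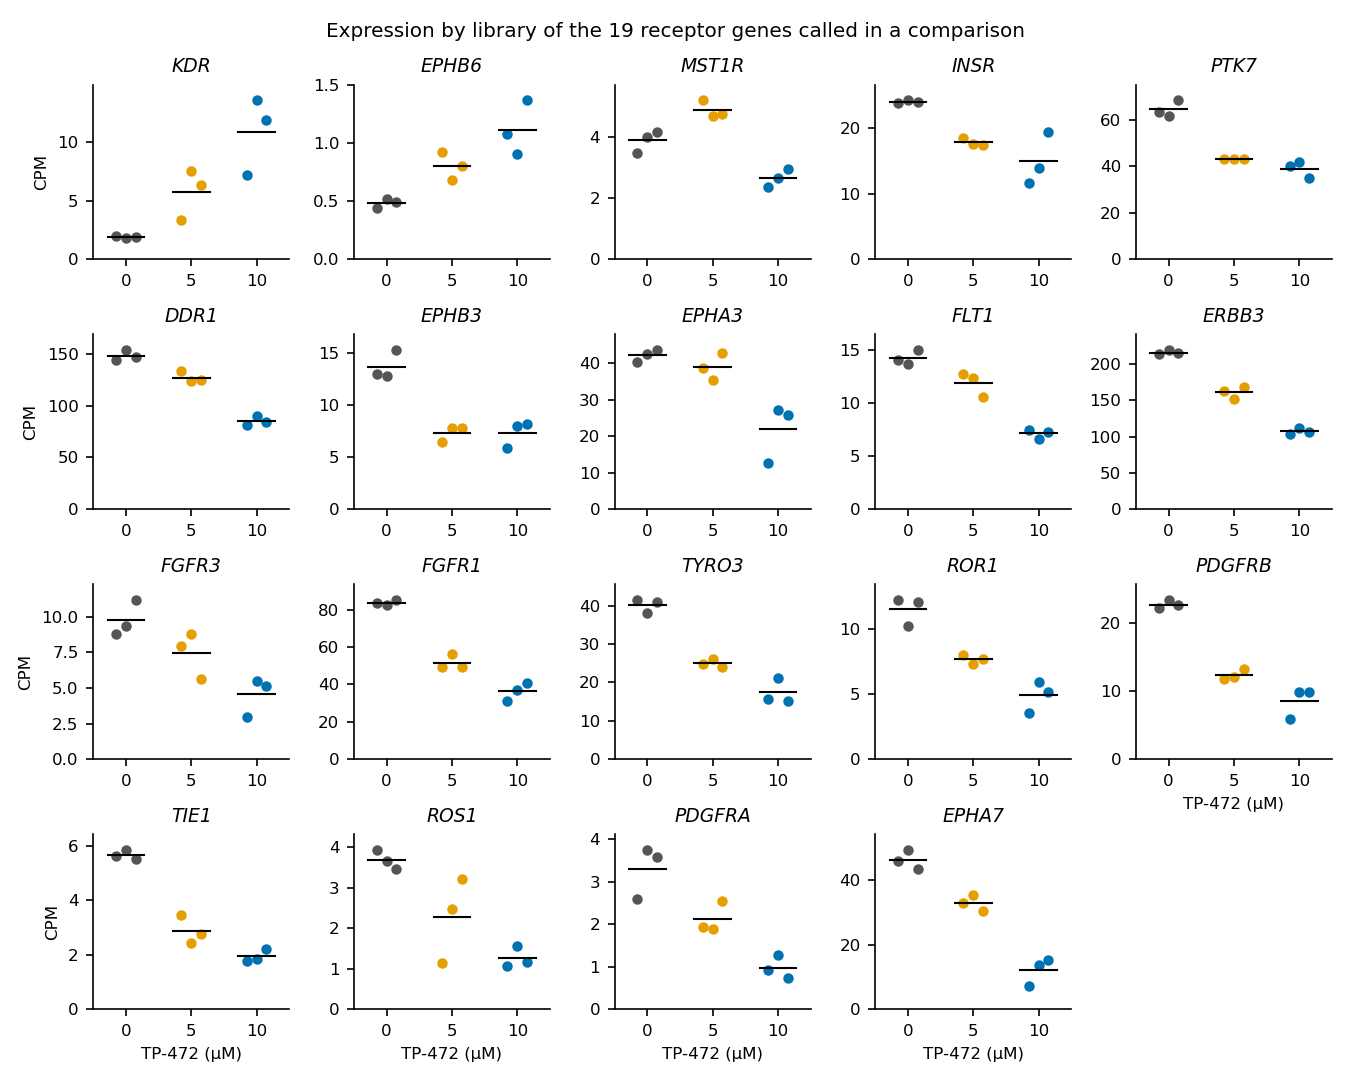
CPM in each of the 9 libraries for the 19 receptor genes called in any comparison, from the largest rise at 10 µM to the largest fall, with DMSO shown as 0 µM. Points are libraries and bars are means, and the vertical axes start at 0. KDR and EPHB6 are higher in the TP-472 libraries, MST1R is highest at 5 µM, EPHB3 is at a like level at both doses, and the other panels step down.

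EPHB1, an ephrin-B receptor, had 8.57, 9.07 and 8.68 CPM in the DMSO libraries, 9.11, 11.8 and 6.51 CPM at 5 µM and 8.49, 13.9 and 11.1 CPM at 10 µM, with overlap between all groups and a log2 fold change of 0.35 ± 0.22 at 10 µM that did not pass. NTRK2, a neurotrophin receptor, had 1.51, 1.15 and 1.56 CPM in the DMSO libraries, 1.31, 1.68 and 2.07 CPM at 5 µM and 0.207, 0.884 and 1.16 CPM at 10 µM and was not called, with a log2 fold change of -0.90 ± 0.51 at 10 µM. ALK, LTK, EPHA5 and EPHA6 had means under 1 CPM over the 9 libraries and were not called, with log2 fold changes at 10 µM from 0.26 for EPHA6 to 1.45 for ALK. The 9 genes not tested were ERBB4, KIT, FLT3, FLT4, NTRK3, RET, MUSK, EPHA8 and EPHA10, none of which exceeded 29 counts in a library. A change in these genes, KIT included, could not be judged at this depth.

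The genes listed as ligands moved in both directions. Of 68 genes listed, 53 were tested, and 7 rose and 10 fell at 10 µM, against 8.57% up and 10.5% down of all genes tested, with a median log2 fold change of -0.13. The list includes FGF11, FGF12 and FGF13, whose proteins stay inside the cell and are not secreted ligands, and FGF12 was 1 of the 10 falls. At 5 µM 4 rose and 5 fell, against 2.14% and 2.72% of all genes. Between the doses, 3 were higher and 3, FGF12 among them, were lower at 10 µM than at 5 µM, against 1.42% and 2.59% of all genes. KITLG, or stem cell factor, the ligand of KIT, had 2.64, 2.55 and 1.77 CPM in the DMSO libraries, 5.52, 7.17 and 4.35 CPM at 5 µM and 10.9, 10.5 and 12.2 CPM at 10 µM. It rose at both doses without overlap (log2 fold change of 1.29 ± 0.22 (SE), adjusted p = 0.00488 at 5 µM, and log2 fold change of 2.27 ± 0.22 (SE), adjusted p = 4.79e-05 at 10 µM), while its receptor was at 0 in 7 of 9 libraries. AREG, or amphiregulin, a ligand of EGFR, had 19.1, 20.5 and 19.9 CPM in the DMSO libraries, 35.7, 33.6 and 37.2 CPM at 5 µM and 94.4, 70.9 and 67.7 CPM at 10 µM, and rose at both doses (log2 fold change of 0.84 ± 0.12 (SE), adjusted p = 0.00241 at 5 µM, and log2 fold change of 1.97 ± 0.13 (SE), adjusted p = 3.42e-06 at 10 µM). NRG4, a ligand of ERBB4, had 0.543, 1.03 and 0.544 CPM in the DMSO libraries, 0.789, 0.949 and 1.44 CPM at 5 µM and 3.97, 2.21 and 2.08 CPM at 10 µM and rose at 10 µM (log2 fold change of 1.96 ± 0.41 (SE), adjusted p = 0.00480), where ERBB4 was barely detected.

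PDGFB, whose dimer is the ligand of PDGFRB, fell together with that receptor. It had 11.1, 8.87 and 9.86 CPM in the DMSO libraries, 3.86, 4.61 and 4.72 CPM at 5 µM and 3.37, 2.04 and 1.14 CPM at 10 µM, and fell at both doses (log2 fold change of -1.18 ± 0.30 (SE), adjusted p = 0.0372 at 5 µM, and log2 fold change of -2.19 ± 0.32 (SE), adjusted p = 0.000608 at 10 µM). PTN, or pleiotrophin, a heparin-binding growth factor listed with the ligands of ALK, had 3.02, 2.30 and 2.36 CPM in the DMSO libraries, 0.679, 1.32 and 1.62 CPM at 5 µM and 0.475, 1.19 and 0.876 CPM at 10 µM and fell at 10 µM (log2 fold change of -1.59 ± 0.41 (SE), adjusted p = 0.0143).

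Of 44 adaptors and effectors inside the cell, 43 were tested, and 3 rose and 5 fell at 10 µM (3 fell without DMSO replicate 1 or 3), against 8.57% up and 10.5% down of all genes tested, with a median log2 fold change of -0.12. At 5 µM, where 2.14% of all genes rose and 2.72% fell, 2 rose and 0 fell in edgeR's quasi-likelihood test, where 7 were lower at an unadjusted p under 0.05, and where limma-voom and the likelihood ratio test called 0 and DESeq2 called 2. IRS1, a docking protein of INSR and IGF1R, had 69.7, 68.8 and 73.4 CPM in the DMSO libraries, 60.1, 59.7 and 63.9 CPM at 5 µM and 30.3, 38.1 and 39.0 CPM at 10 µM and fell at 10 µM (log2 fold change of -0.98 ± 0.10 (SE), adjusted p = 7.14e-05). IRS2, the other main docking protein of these receptors, went the other way. It rose from 128, 133 and 135 CPM in DMSO to 178, 239 and 220 CPM at 10 µM (log2 fold change of 0.68 ± 0.10 (SE), adjusted p = 0.000838). PIK3R3, a regulatory subunit of PI3 kinase, rose from 9.80, 9.63 and 9.65 CPM to 16.8, 20.6 and 19.1 CPM at 10 µM (log2 fold change of 0.96 ± 0.10 (SE), adjusted p = 8.67e-05). PLCG2, a phospholipase, rose from 2.21, 2.18 and 3.24 CPM to 3.74, 5.06 and 5.93 CPM (log2 fold change of 0.95 ± 0.23 (SE), adjusted p = 0.00954). VAV3, an exchange factor that docks on receptors, and SH2B2, an adaptor of INSR, fell, with log2 fold changes of -0.92 ± 0.24 and -0.77 ± 0.22.

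Of 32 genes listed as inhibitors of receptor signals, 28 were tested, and 10 fell and 1 rose at 10 µM, against 10.5% down and 8.57% up of all genes tested, with a median log2 fold change of -0.33. At 5 µM 4 fell and 1 rose, against 2.72% and 2.14% of all genes. SPRY1, a Sprouty protein, had 6.08, 5.70 and 6.08 CPM in the DMSO libraries, 2.17, 2.56 and 3.31 CPM at 5 µM and 2.38, 2.60 and 2.00 CPM at 10 µM and fell at both doses (log2 fold change of -1.15 ± 0.20 (SE), adjusted p = 0.00567 at 5 µM, and log2 fold change of -1.36 ± 0.20 (SE), adjusted p = 0.000653 at 10 µM). PTPRB, the phosphatase that acts on TEK and KDR, had 13.1, 13.2 and 12.9 CPM in the DMSO libraries, 6.99, 8.93 and 8.05 CPM at 5 µM and 2.17, 4.58 and 5.62 CPM at 10 µM and fell at 10 µM (log2 fold change of -1.66 ± 0.28 (SE), adjusted p = 0.00137). PTPRJ, a phosphatase of MET and PDGFRB, had 76.2, 79.1 and 79.2 CPM in the DMSO libraries, 58.4, 58.5 and 57.1 CPM at 5 µM and 24.8, 41.2 and 41.4 CPM at 10 µM and fell at 10 µM (log2 fold change of -1.12 ± 0.16 (SE), adjusted p = 0.000648). LRIG3, listed here as a member of the LRIG family, fell from 70.2, 74.5 and 76.4 CPM to 25.6, 39.7 and 40.4 CPM (log2 fold change of -1.06 ± 0.15 (SE), adjusted p = 0.000500). The rise was that of SOCS2, a suppressor of cytokine and growth hormone signalling, from 11.7, 8.77 and 9.13 CPM to 18.3, 20.7 and 17.6 CPM (log2 fold change of 0.94 ± 0.12 (SE), adjusted p = 0.000352).

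**Figure D4:**
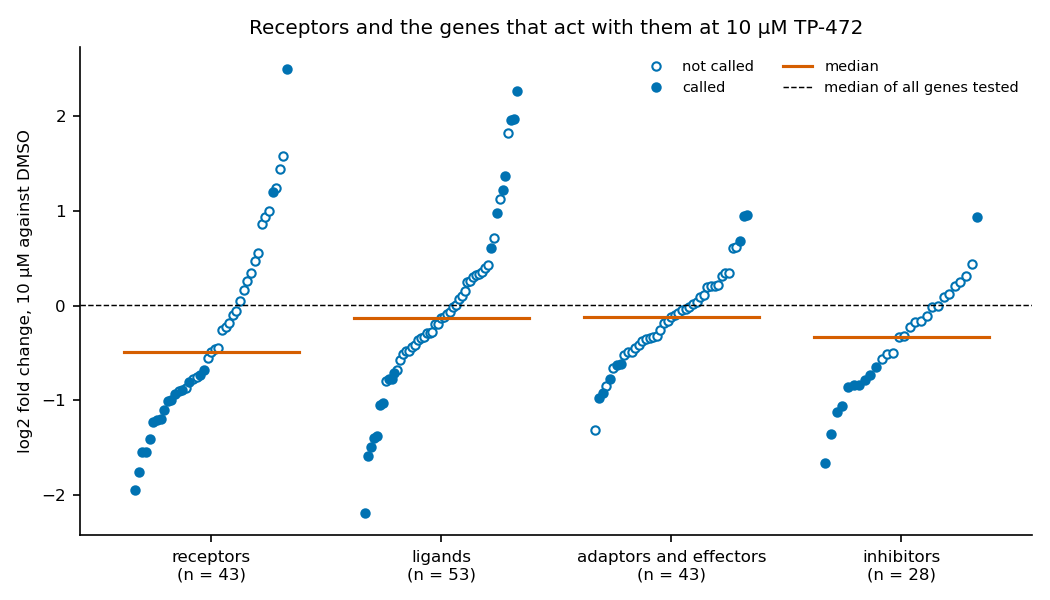
Log2 fold change at 10 µM against DMSO of every tested gene among the receptors and the ligands, adaptors and effectors, and inhibitors, each gene a point in ascending order. Filled points were called, orange bars are medians and the dashed line is the median of all genes tested. The medians are -0.49 for the 43 receptors, -0.13 for the 53 ligands, -0.12 for the 43 adaptors and effectors and -0.33 for the 28 inhibitors.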

How the data were processed

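RNA of A375 cells was sequenced in 9 libraries. The extraction protocol describes selection with oligo-dT beads whereas the design text describes depletion of ribosomal RNA, and which was used is not settled here. The authors deposited RSEM expected counts for each gene symbol, without scaling to library size. The submitters' processing notes name Bowtie2 2.1.0, RSEM 1.2.15 and hg38, but no annotation and no strand setting for the counting, although the protocol describes strand-specific libraries. Expected counts were rounded to whole numbers and analysed with edgeR 4.0.16 in R 4.3.3 (TMM factors of 0.957 to 1.03, filterByExpr, and 1 quasi-likelihood fit of all 3 groups with Benjamini-Hochberg adjustment over 16417 genes). SE is the log2 fold change over the square root of F. The scripts were tested on simulated data. DESeq2 1.42.0 and limma 3.58.1 served as alternatives, and Python 3.11.15 with matplotlib 3.10.9 made tables and figures. GENCODE release 29 placed 23926 symbols, and promoters are from RefSeq.

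The receptor genes and the lists of ligands, adaptors and inhibitors were chosen with earlier results of these data known. Full values are given for each receptor gene called in a comparison and for the 8 with the highest mean CPM in DMSO, and for up to 5 called genes per other list with the largest change at 10 µM and a mean of at least 1 CPM. Single values of other receptor genes and those of IRS2 were chosen after they were seen. Alternatives were other scaling factors, filters, tests and limits, a block for the replicate number, only the groups compared, ribosomal RNA genes left out, a trend with length and GC content removed (splines of 4 degrees of freedom), and each library left out.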

Additional observations from a re-analysis of the deposited data

Results flagged for a closer look

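MST1R was the 1 receptor gene tested for which all 5 µM libraries lay on one side of DMSO and all 10 µM libraries on the other. Its level was 5.19, 4.69 and 4.74 CPM at 5 µM against 3.48, 4.01 and 4.16 CPM in DMSO and 2.35, 2.65 and 2.95 CPM at 10 µM, and the fit gave a log2 fold change of -0.88 ± 0.17 (SE) from 5 to 10 µM, with an adjusted p of 0.0116 in edgeR's quasi-likelihood test. Against DMSO neither dose was called with all libraries, with log2 fold changes of 0.33 ± 0.16 at 5 µM and -0.55 ± 0.17 at 10 µM. The latter had an adjusted p of 0.0276 in edgeR's quasi-likelihood test and was called down without DMSO replicate 1 (-0.62, adjusted p = 0.0464) or 10 µM replicate 3 (-0.63, adjusted p = 0.0248).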

How the results depend on the processing

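A fold change of at least 2 gave 10 down at 10 µM, 0 down at 5 µM and 2 lower at 10 µM than at 5 µM, and with no fold limit 8 were down at 5 µM and 9 lower at 10 µM than at 5 µM. An adjusted p under 0.01 gave 1 up at 10 µM, 0 up and 3 down at 5 µM, and 3 lower between the doses. For rises at 10 µM, DESeq2 and the likelihood ratio test each gave 4 (adding EPHA1 and MERTK), and a minimum of 1 CPM in 3 libraries gave 1. At 5 µM limma-voom gave 0 rises and a fit of only the groups compared gave 2 (KDR and EPHA1), and that fit gave 2 lower between the doses (EPHA7 and FLT1). DESeq2, the likelihood ratio test and removal of the trend with length and GC content each gave 1 gene higher at 10 µM than at 5 µM, KDR. With each library left out in turn, there were 0 to 1 genes up and 4 to 6 down at 5 µM, 1 to 3 up and 15 to 19 down at 10 µM, and 0 to 2 higher and 4 to 9 lower between the doses.

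Labels share replicate numbers, but deviations of same-numbered libraries correlated at -0.0752 to 0.133, against -0.121 to 0.105 for others, so the numbers were not taken to pair the libraries. A block for the number gave 17 down and 1 up at 10 µM, 5 down and 1 up at 5 µM, and 4 lower and 0 higher between the doses, and it lost the calls of EPHB6 at 10 µM and PDGFRA between the doses and gained that of DDR2 at 10 µM.

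The sign changed for IGF1R at 10 µM without 10 µM replicate 1 (range -0.22 to 0.099 with a library left out) and with the trend of length and GC content removed (0.087). For EPHB3 between the doses, at 0.0028, it was -0.0067 without a filter, -0.0095 with limma-voom, -0.0048 with the block, and -0.085 to 0.14 with a library left out. Over the alternatives, 484 of 499 log2 fold changes at 5 µM kept their direction and side of the limits, as did 485 at 10 µM and 446 between the doses. With alternatives chosen after seeing the data, 5 to 8 ligands rose and 7 to 15 fell at 10 µM, 0 to 4 adaptors and effectors rose and 0 to 11 fell, and 0 to 2 inhibitors rose and 4 to 14 fell. Genes under 1 CPM, among them 20 receptor genes, rest on few counts, and 3 libraries per group in 1 cell line limit what can be told of small changes.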
